A study of Mus musculus with 81 samples.

Results

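Expression of 8 genes of neurotrophin signaling was examined in excitatory neurons of the mouse hippocampus: the ligands Bdnf and Ntf3, the Trk receptors Ntrk2 and Ntrk3, the p75 receptor Ngfr, and the Vps10p-domain receptors Sort1, Sorcs1 and Sorcs3. They were chosen by name, and each of the 8 symbols matched 1 of the 57010 gene identifiers in the deposited files. CA1 pyramidal neurons (CA1 PNs), CA3 pyramidal neurons (CA3 PNs) and dentate gyrus granule cells (DGCs) were microisolated by laser capture microdissection (LCM) from Nissl-stained sections of rostral hippocampus, many neurons of 1 brain being pooled into 1 RNA sample, and sequenced. There were 81 libraries from 28 male mice at 6 months of age (MO). The Ts65Dn mice (Ts) carry an extra segregating chromosome with segments of mouse chromosomes that are partly orthologous to human chromosome 21, and disomic mice (2N) from the same colony were the controls. Breeders were female Ts65Dn mice and male C57Bl/6J Eicher x C3H/HeSnJ F1 mice. Dams ate a normal diet with choline chloride at 1.1 g/kg (ChN, 12 mice, 35 libraries) or a diet supplemented to 5.0 g/kg (ChP, 16 mice, 46 libraries) through pregnancy and nursing, and all offspring ate the normal diet afterwards. CA1 PNs gave 6 2N ChN, 5 Ts ChN, 7 2N ChP and 9 Ts ChP libraries, CA3 PNs 6, 6, 7 and 7, and DGCs 6, 6, 7 and 9. The CA3 PN library of mouse 15-145, which its own label calls Ts, was counted as 2N, the genotype on the labels of its other libraries.

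Neurotrophins are secreted growth factors made as longer proneurotrophins. Mature BDNF acts through the receptor kinase TrkB (Ntrk2) and neurotrophin-3, the product of Ntf3, mainly through TrkC (Ntrk3), and both lead through adaptor proteins to the MAP kinase, PI3 kinase and phospholipase C pathways that promote survival and synaptic plasticity. Uncleaved proneurotrophins bind p75 (Ngfr) together with sortilin (Sort1), a complex known for cell death, and sortilin and its relatives SorCS1 and SorCS3 also sort proteins within neurons. In the hippocampus BDNF is released by the mossy fibers that DGCs send to CA3 PNs, and it is required for lasting synaptic potentiation.

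On GRCm39, Bdnf (ENSMUSG00000048482) spans chr2:109505045-109557475 on the plus strand, and Ntf3 (ENSMUSG00000049107) spans chr6:126078375-126143873 on the minus strand. Ntrk2 (ENSMUSG00000055254) lies at chr13:58954176-59281784, plus strand, and Ntrk3 (ENSMUSG00000059146) at chr7:77825707-78387760, minus strand. Ngfr (ENSMUSG00000000120) is at chr11:95459638-95478561 on the minus strand. Sort1 (ENSMUSG00000068747) lies at chr3:108191285-108268842, plus strand, Sorcs1 (ENSMUSG00000043531) at chr19:50131737-50667093, minus strand, and Sorcs3 (ENSMUSG00000063434) at chr19:48194464-48793944, plus strand. The deposited files list 11 transcripts for Bdnf, and all 11 end in the same exon (chr2:109553727-109557475), which holds the coding sequence of the mature protein, but start in different exons along the gene.

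Promoters are shown for both ligands, Bdnf because its transcripts start at several sites and Ntf3 because its level was far apart between populations, and for Sorcs3, which was highest in CA1 PNs. The RefSeq table used here, on GRCm38.p6, held 13 promoters for 6 of the 8 genes and none for Ntrk3 or Sort1. Each sequence is the 250 bases before a transcription start, 5′ to 3′ on the gene's strand, and capitals mark a match to one of the motifs searched on both strands.
Bdnf promoter 1, chr2:109674450-109674699: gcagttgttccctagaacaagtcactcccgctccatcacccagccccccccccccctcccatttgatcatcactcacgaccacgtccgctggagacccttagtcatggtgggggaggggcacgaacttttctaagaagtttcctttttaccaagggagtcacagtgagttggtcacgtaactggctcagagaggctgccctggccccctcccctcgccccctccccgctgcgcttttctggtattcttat
Bdnf promoter 3, chr2:109692186-109692435: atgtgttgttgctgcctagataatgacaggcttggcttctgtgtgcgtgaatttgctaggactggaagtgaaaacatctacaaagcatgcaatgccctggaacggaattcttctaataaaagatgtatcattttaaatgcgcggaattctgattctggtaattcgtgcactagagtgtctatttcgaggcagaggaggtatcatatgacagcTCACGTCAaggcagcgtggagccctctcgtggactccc
Ntf3 promoter 1, chr6:126166745-126166994: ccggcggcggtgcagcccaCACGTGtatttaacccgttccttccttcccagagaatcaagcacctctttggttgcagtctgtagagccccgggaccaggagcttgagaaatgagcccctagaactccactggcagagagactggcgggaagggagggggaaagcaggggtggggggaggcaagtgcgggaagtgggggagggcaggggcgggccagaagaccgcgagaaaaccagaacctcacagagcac
Sorcs3 promoter 1, chr19:48205775-48206024: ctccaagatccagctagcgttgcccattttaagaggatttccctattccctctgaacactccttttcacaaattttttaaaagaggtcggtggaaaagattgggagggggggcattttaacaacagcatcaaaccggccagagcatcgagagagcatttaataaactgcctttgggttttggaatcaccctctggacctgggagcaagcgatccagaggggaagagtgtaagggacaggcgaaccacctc
The motifs were the cAMP response element TGACGTCA, the variant TCACGTCA, the half-site TGACG and the E-box CACGTG. Bdnf promoter 3 held TCACGTCA, which 0.35% of 32851 promoters of that length held, and its only TGACG, held by 17.8% of promoters, overlaps that match. Ntf3 promoter 1 held CACGTG, as did 6.02% of promoters. None of the 13 held TGACGTCA (1.55% of promoters), and the printed Bdnf promoter 1 and Sorcs3 promoter 1 held none of the 4 motifs. A match describes letters only.

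Each library gave 358355 to 4744036 expected counts. Lists of marker genes placed the CA3 PN and DGC libraries: the mean log2(CPM + 1) of the CA3 list was 7.05 to 7.46 in CA3 PNs and that of the dentate list 7.56 to 8.08 in DGCs. The CA1 list (Dcn of its 6 genes had a median of 0) ran from 2.08 to 6.68 in CA1 PNs. In 10 of the 27 CA1 PN libraries (2 of 2N ChN, 1 of Ts ChN, 3 of 2N ChP and 4 of Ts ChP) a list of 7 markers of the neighboring CA2 sector had a mean of 5.71 to 7.9, against 1.08 to 3.03 in the other 17, a division drawn at 4.5 after the values were seen. The 5 CA3 markers were also higher in those 10 libraries, with a mean of 3.88 to 6.7 (156 to 728 CPM summed), against 1.09 to 2.93 (14.8 to 53.5 CPM) in the other 17. In several of the 10 the CA2 list exceeded the CA1 list, as in mice 17-21 (7.9 against 2.22), 15-336 (7.69 against 3.94) and 16-272 (7.41 against 2.08). The lists did not place such libraries as CA1, and they are called CA1 PN libraries by their labels. In the CA3 PN library of mouse 15-140 the dentate list reached 4.39, where the median of CA3 PN libraries was 1.93. As a check of genotype, 6 genes that Ts mice carry in 3 copies (App, Sod1, Son, Gart, Ttc3 and Dyrk1a) had a mean log2 CPM of 7.57 to 7.88 in 2N and 8.32 to 8.53 in Ts DGCs, and of 8.08 to 8.33 in 2N, mouse 15-145 included, and 8.68 to 8.84 in Ts CA3 PNs. In CA1 PNs the Ts library of mouse 16-272 had 8.40 and the other 13 Ts libraries had 8.61 to 8.76. The CA1 PN library of mouse 17-154, labelled 2N, had 8.70, within the Ts range, where the other 12 libraries labelled 2N had 7.91 to 8.17. That library goes against its label, so the calls made on members with 2N ChN CA1 PNs are also given without mouse 17-154. In these pooled samples, fewer cells of a type and less RNA per cell cannot be told apart.

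Per unit of transcript length, Sort1 and the Trk receptors were more abundant than the ligands. Within libraries, Sort1 had the highest TPM (transcripts scaled for length and library total) of the 8 genes in 27 of 27 CA1 PN libraries and 26 of 26 CA3 PN libraries, with medians of 107 and 139 TPM. In DGCs Ntrk3 led in 24 of 28 libraries (median 101 TPM) and Sort1 in the other 4 (median 85.1 TPM). The TPM ratio of Ntrk3 to Ntrk2 was 0.823 in CA1 PNs (median, range 0.484 to 1.27), 0.967 in CA3 PNs (0.773 to 1.46) and 2.44 in DGCs (1.56 to 3.48), and Ntrk3 exceeded Ntrk2 in 28 of 28 DGC libraries. Bdnf had medians of 10.2, 20.8 and 17.95 TPM in the same order of populations (CA1 PNs first, DGCs last). In DGCs Ntf3 stood beside it, with a median of 20.6 TPM, and Bdnf was the higher of the 2 in 14 of 28 libraries.

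**Figure D1:**
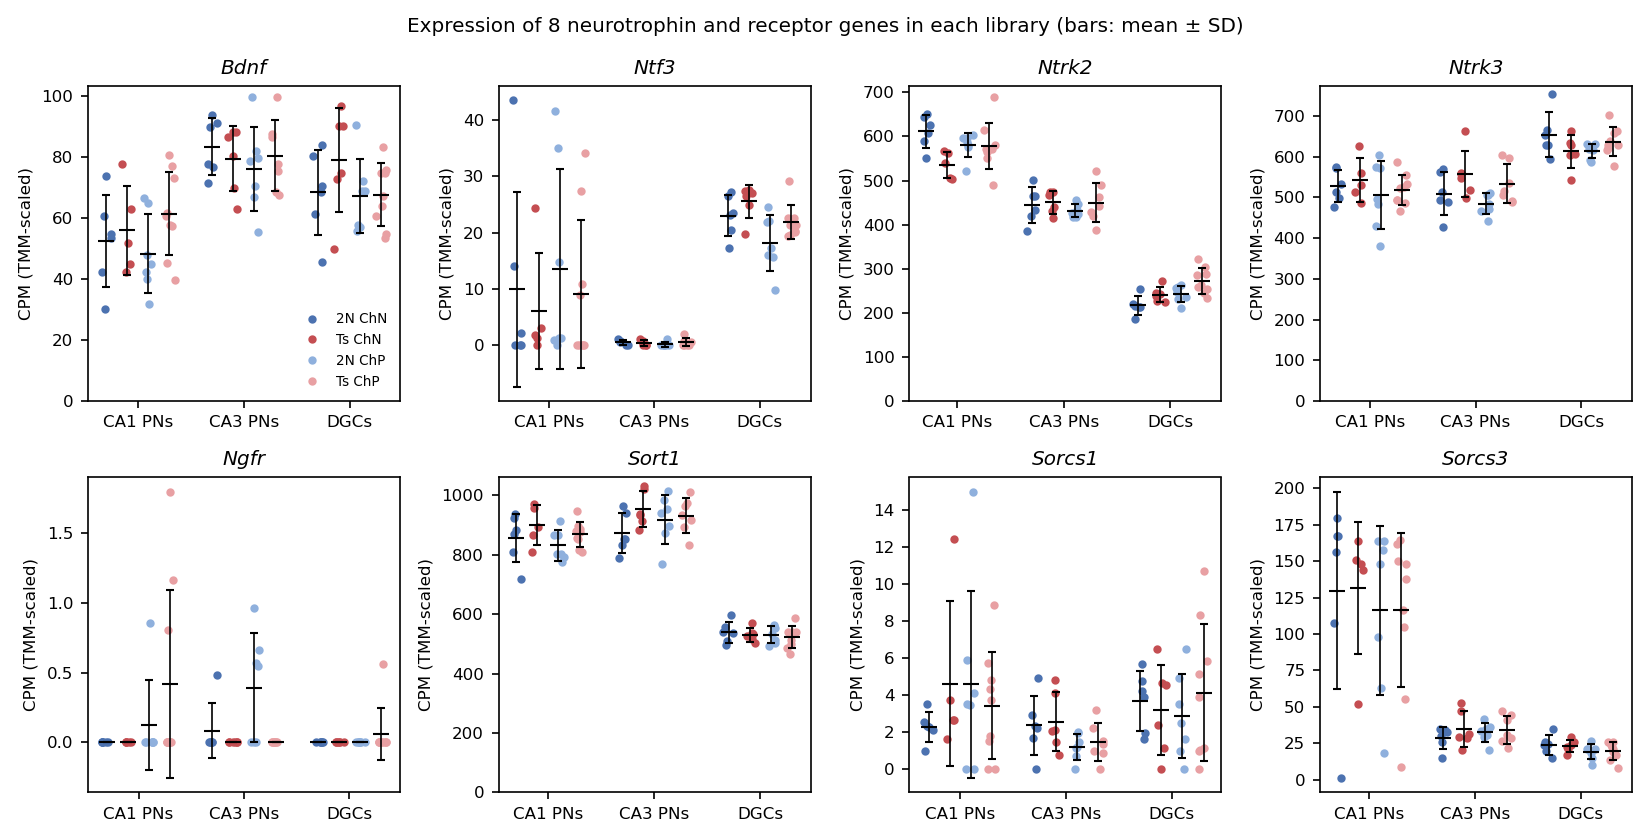
CPM (counts scaled to a common library total, with TMM factors) of the 8 genes in each library, by population, genotype and diet; horizontal marks and bars are the mean ± SD of each group. Ntrk2 steps down from CA1 PNs to CA3 PNs to DGCs, Sort1 is lower in DGCs, and Ntf3 is near 0 in CA3 PNs and lies between 9.83 and 29.2 CPM in DGCs.

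The comparison of populations asked which neurons carry which ligand and receptor, first in 2N ChN mice. With an adjusted p under 0.05 as the call, 4 of the 7 members tested differed between CA1 PNs and CA3 PNs (Bdnf, Ntf3, Ntrk2 and Sorcs3), where 23.3% of all genes did. An alternative test, limma-voom, called fewer members in this comparison. Between CA1 PNs and DGCs 5 of 7 differed (34.3% of all genes), and between CA3 PNs and DGCs 4 of 7 (43.7%). Ngfr was too low to be tested in any comparison. The same 3 counts were 4, 6 and 3 in Ts ChN mice (25.3, 33.8 and 44.5% of all genes), 4, 5 and 4 in 2N ChP mice (22.9, 31.8 and 40.4%) and 4, 4 and 4 in Ts ChP mice (24.5, 39.3 and 44.2%).

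Bdnf, the activity-regulated ligand of TrkB, was lowest in CA1 PNs. In 2N ChN mice the lowest, median and highest CPM were 30.2, 54.1 and 73.8 in CA1 PNs, 71.6, 83.7 and 93.9 in CA3 PNs and 45.5, 69.6 and 84.0 in DGCs. CA1 PN and CA3 PN libraries overlapped only between 71.6 and 73.8 CPM. The log2 fold change (LFC) of CA1 PNs relative to CA3 PNs was -0.69 ± 0.16 (SE; edgeR, adjusted p = 0.000975), and it was -0.53, -0.66 and -0.38 in Ts ChN, 2N ChP and Ts ChP mice, called in each (adjusted p = 0.0126, 0.000847 and 0.0146). CA3 PNs were the higher in 24 of 25 mice with both libraries. Without mouse 17-154 the 2N ChN value was -0.59 (adjusted p = 0.0164). Leaving out mouse 16-490 or 17-173 in Ts ChN (adjusted p = 0.0723 and 0.0845) or 15-36 in Ts ChP (0.108) ended the call. Relative to DGCs, Bdnf in CA1 PNs had an LFC of -0.42 ± 0.16 in 2N ChN (adjusted p = 0.0428; without mouse 17-154 -0.31 and 0.22), -0.53 in Ts ChN (0.00888) and -0.49 in 2N ChP (0.0146), and in Ts ChP it was -0.15 with an interval of -0.37 to 0.08 (0.341). The call in 2N ChN was also lost without 15-147, 17-172 or 17-21 (adjusted p = 0.0559, 0.113 and 0.0568), in 2N ChP without 15-334 (0.0742) and in Ts ChN without 16-490 or 17-173 (0.052 and 0.0522). Of all 15 alternatives in 2N ChN, 8 kept the call, 2 of them among the 6 that left out a mouse, so some other settings ended it too. DGCs exceeded CA1 PNs in 20 of 27 mice. CA3 PNs and DGCs were neighbors, and no group gave a call: the LFC was 0.27 (95% interval -0.03 to 0.57) in 2N ChN and from -0.01 to 0.23 in the other groups. Within mice, Bdnf was higher in the CA3 PN library in 18 of 26.

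Ntf3, the neurotrophin-3 gene, was abundant in DGCs and nearly absent from the counts of CA3 PNs. In 2N ChN DGCs it had 17.3, 23.3 and 27.2 CPM (lowest, median, highest), and in CA3 PNs 0, 0.567 and 1.09. The lowest DGC library of the series had 9.83 CPM and the highest CA3 PN library 1.89, that of mouse 15-140 in which dentate markers were highest. DGCs were above CA3 PNs in 26 of 26 mice. Because the CA3 PN libraries of 1 group summed to only 2 to 5 counts, the fold is given as a ratio of summed counts with its counting interval: 61.8 (95% interval 25.9 to 193) in 2N ChN, 86.1 (29 to 421) in Ts ChN, 102 (27.7 to 856) in 2N ChP and 65.4 (25.2 to 242) in Ts ChP, and the edgeR test made the call in each (adjusted p = 0.000483, 2.75e-05, 0.000268 and 0.000148). These intervals cover counting error only.

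In CA1 PNs Ntf3 divided the libraries. It ran from 8.95 to 43.5 CPM in the 10 libraries high in CA2 markers and from 0 to 3.11 CPM in the other 17, of which 10 were at 0, so the ranges did not overlap. In Ts ChN, for example, mouse 16-357 had 24.4 CPM, and 17-157, 17-173, 16-490 and 17-153 had 3.11, 1.76, 1.23 and 0 CPM. With all libraries, Ntf3 was called higher in CA1 PNs, relative to CA3 PNs, in the 4 groups, with ratios of summed counts of 24.5 (95% counting interval 9.94 to 78.3), 19.3 (6.14 to 97.9), 70.0 (18.8 to 587) and 29.1 (11.1 to 108) in 2N ChN, Ts ChN, 2N ChP and Ts ChP (edgeR, adjusted p = 0.0155, 0.017, 0.00147 and 0.00578). Without the 10 libraries no call remained (adjusted p = 0.897, 0.0845, 0.304 and 0.147). The remaining CA1 PN libraries then held 2, 7, 3 and 0 Ntf3 counts in all, and CA3 PNs 5, 3, 2 and 4, so that no fold is given. The call in 2N ChN was also lost without mouse 17-154 (0.075), and that in Ts ChN without 16-357 (0.12), without 17-157 (0.0576) or with mouse as a replicate block (0.0667). Against DGCs, CA1 PNs were called lower in Ts ChN (-2.05, adjusted p = 0.0123; lost without 16-490, 17-157 or 17-173, at 0.0583, 0.0611 and 0.0536) and not in the other 3 groups, where the block added Ts ChP (0.0438). Without the 10 libraries, DGCs were called higher in all 4 groups, where DGCs held 154, 195, 110 and 198 counts. In Ts ChP, with 0 counts in 5 CA1 PN libraries, DGCs were at least 45.8-fold higher, taking 3 counts over those libraries. CA2 pyramidal neurons border CA1 in the section, and whether RNA of CA2 or CA3 neurons bears on the Ntf3 counts was not tested.

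**Figure D2:**
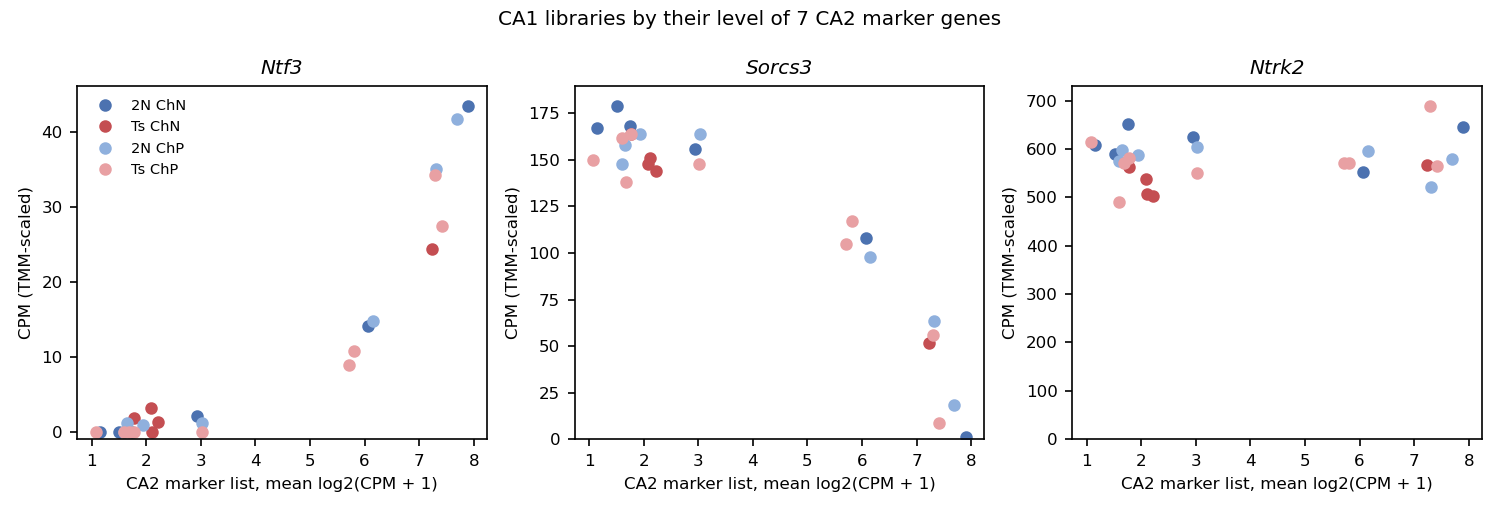
Ntf3, Sorcs3 and Ntrk2 (CPM, TMM-scaled) in each of 27 CA1 PN libraries against the mean log2(CPM + 1) of 7 CA2 markers, colored by genotype and diet. The 10 libraries at 5.71 or above have 8.95 to 43.5 CPM of Ntf3 and 1.14 to 117 CPM of Sorcs3, outside the ranges of the other 17, while Ntrk2 overlaps.

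Ntrk2, which encodes TrkB, the BDNF receptor, fell in steps from CA1 PNs to CA3 PNs to DGCs, and that order held in 25 of 25 mice with 3 libraries. In 2N ChN mice its lowest, median and highest CPM were 552, 617 and 651 in CA1 PNs, 385, 448 and 500.4 in CA3 PNs and 186, 215 and 254 in DGCs, with no overlap between populations. CA1 PNs were above DGCs with an LFC of 1.47 ± 0.09 (adjusted p = 1.25e-15; without mouse 17-154 1.45), and of 1.13, 1.22 and 1.07 in Ts ChN, 2N ChP and Ts ChP. CA1 PNs exceeded CA3 PNs by 0.46 ± 0.09 (adjusted p = 0.000153; without mouse 17-154 0.53) and in the other groups by 0.25, 0.41 and 0.35 (0.0121, 8.5e-05 and 0.000299), and CA3 PNs exceeded DGCs by 1.01 ± 0.09 (1.79e-11) and by 0.88, 0.80 and 0.72. These calls held in each group when any 1 mouse was left out. Ntrk2 in the 10 CA1 PN libraries high in CA2 markers, 521 to 689 CPM, overlapped the 490 to 651 CPM of the others. Astrocytes also express Ntrk2, mainly as a truncated receptor. The 8 astrocyte markers, none of which had a median of 0, summed to 447 to 1463 CPM in CA1 PN, 1666 to 2856 in CA3 PN and 672 to 1090 in DGC libraries, with a mean log2(CPM + 1) of 4.73, 5.25 and 4.40, and their part in the Ntrk2 level was not tested.

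Ntrk3, the gene of the neurotrophin-3 receptor TrkC, had the opposite leaning and was highest in DGCs. In 2N ChN mice its lowest, median and highest CPM were 594, 640.3 and 755 in DGCs, 476, 523 and 576 in CA1 PNs and 428, 503 and 570 in CA3 PNs. No DGC library overlapped either population of PNs. Over all groups DGCs were above CA1 PNs in 27 of 27 mice and above CA3 PNs in 25 of 26. CA1 PNs relative to DGCs had an LFC of -0.34 ± 0.09 in 2N ChN (adjusted p = 0.00253; without mouse 17-154 -0.33), and of -0.20, -0.32 and -0.32 in Ts ChN, 2N ChP and Ts ChP (0.0483, 0.00458 and 6.87e-05). The call in Ts ChN was lost without 16-490, 17-153, 17-173 or 17-192 (adjusted p = 0.142, 0.125, 0.0725 and 0.0906), and without the CA1 PN libraries high in CA2 markers the calls in Ts ChN and 2N ChP were lost (-0.17 and 0.0728, -0.17 and 0.143). CA3 PNs relative to DGCs had an LFC of -0.39 ± 0.09 (adjusted p = 0.000382), -0.37 in 2N ChP (0.000778) and -0.26 in Ts ChP (0.00171), and in Ts ChN it was -0.16 (0.0876; interval -0.31 to -0.01). CA1 PNs and CA3 PNs did not differ beyond their spread in any group, with LFC from -0.06 to 0.05 and intervals within -0.20 and 0.23.

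Ngfr, which encodes p75, was at the limit of detection. Its 14 counts came from 10 of 81 libraries (CA1 PNs had 7 of them, CA3 PNs 6 and DGCs 1), with at most 3 in 1 library. Summed over all libraries this is 0.138 CPM (95% exact interval 0.0754 to 0.231), where 3 counts would be 0.0296 CPM. Differences between populations, genotypes or diets could not be tested at this depth.

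Sort1, the sortilin gene, was higher in both PN populations than in DGCs. In 2N ChN mice the lowest, median and highest CPM were 720, 876 and 937 in CA1 PNs, 789, 853 and 965 in CA3 PNs and 498, 538 and 596 in DGCs. Both PN populations lay wholly above DGCs, and this order held in 27 of 27 mice for CA1 PNs and 26 of 26 for CA3 PNs. The LFC relative to DGCs was 0.64 ± 0.09 for CA1 PNs (adjusted p = 1.68e-07; without mouse 17-154 0.66) and 0.67 ± 0.09 for CA3 PNs (4.99e-08), and in the other groups 0.61 to 0.74 and 0.76 to 0.83. CA1 PNs and CA3 PNs were neighbors with an LFC of -0.02 in 2N ChN (interval -0.19 to 0.14), and of -0.09, -0.16 and -0.11 in Ts ChN, 2N ChP and Ts ChP (adjusted p = 0.408, 0.167 and 0.215), so no group gave a call. Within mice, Sort1 was higher in the CA3 PN library in 20 of 25.

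Sorcs3, whose product SorCS3 sits at postsynaptic sites, was highest in CA1 PNs by the median and had counts in every library of the other populations. In 2N ChN mice its lowest, median and highest CPM were 1.14, 161.5 and 179 in CA1 PNs, 14.7, 31.5 and 34.9 in CA3 PNs and 14.7, 24.0 and 34.9 in DGCs. A single CA1 PN library, that of mouse 17-21, fell below the other populations, and the remaining 5 were above them. The LFC was 2.13 ± 0.48 relative to CA3 PNs (adjusted p = 0.00348; without mouse 17-154 2.24) and 2.43 ± 0.51 relative to DGCs (0.00138; without mouse 17-154 2.47), and the other groups gave 1.73 to 1.87 and 2.46 to 2.59, called in each. In 2N ChN mice 14 of 15 alternatives kept the call relative to CA3 PNs, and 14 of 15 relative to DGCs. Their LFC went down to 1.375 and 1.69. The call relative to CA3 PNs was lost with limma-voom (adjusted p = 0.188). Sorcs3 had 1.14 to 117 CPM in the 10 CA1 PN libraries high in CA2 markers and 138 to 179 CPM in the other 17, and CA2 and CA3 markers moved with this division, and their part in it was not tested. Without the 10, the LFC were 2.48, 2.08, 2.27 and 2.13 relative to CA3 PNs and 2.82, 2.66, 3.05 and 2.93 relative to DGCs (2N ChN, Ts ChN, 2N ChP, Ts ChP). CA3 PNs relative to DGCs gave no call with all libraries, at 0.30 to 0.80, and within mice the CA3 PN library was higher in 20 of 26. The 3 populations share 1 estimate of the spread in each fit, and when those CA1 PN libraries were left out CA3 PNs were called higher in Ts ChN (0.58, adjusted p = 0.00296), 2N ChP (0.78, 0.000241) and Ts ChP (0.80, 2.85e-05).

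Sorcs1, the gene of the related sorting receptor SorCS1, was low in all 3 populations, with 277 counts in 71 of 81 libraries and 0 to 15.0 CPM. Summed over libraries it reached 3.39 CPM in CA1 PNs (95% exact interval 2.78 to 4.11), 1.78 in CA3 PNs (1.4 to 2.22) and 3.48 in DGCs (2.82 to 4.26), intervals that cover counting error only and not the spread between mice. Within mice, Sorcs1 was higher in DGCs in 21 of 26 pairs with CA3 PNs, and in CA1 PNs in 17 of 25. No population difference passed the test. The nearest was CA1 PNs relative to CA3 PNs in 2N ChP, with an LFC of 1.74 ± 0.66 (adjusted p = 0.0506), which mouse as a replicate block moved past the threshold (0.0466). Without the CA1 PN libraries high in CA2 markers, it was called there (2.39, adjusted p = 0.00177) and in Ts ChP (1.77, 0.0159), and CA3 PNs were called lower than DGCs in Ts ChP (-1.40, 0.0326).

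**Figure D3:**
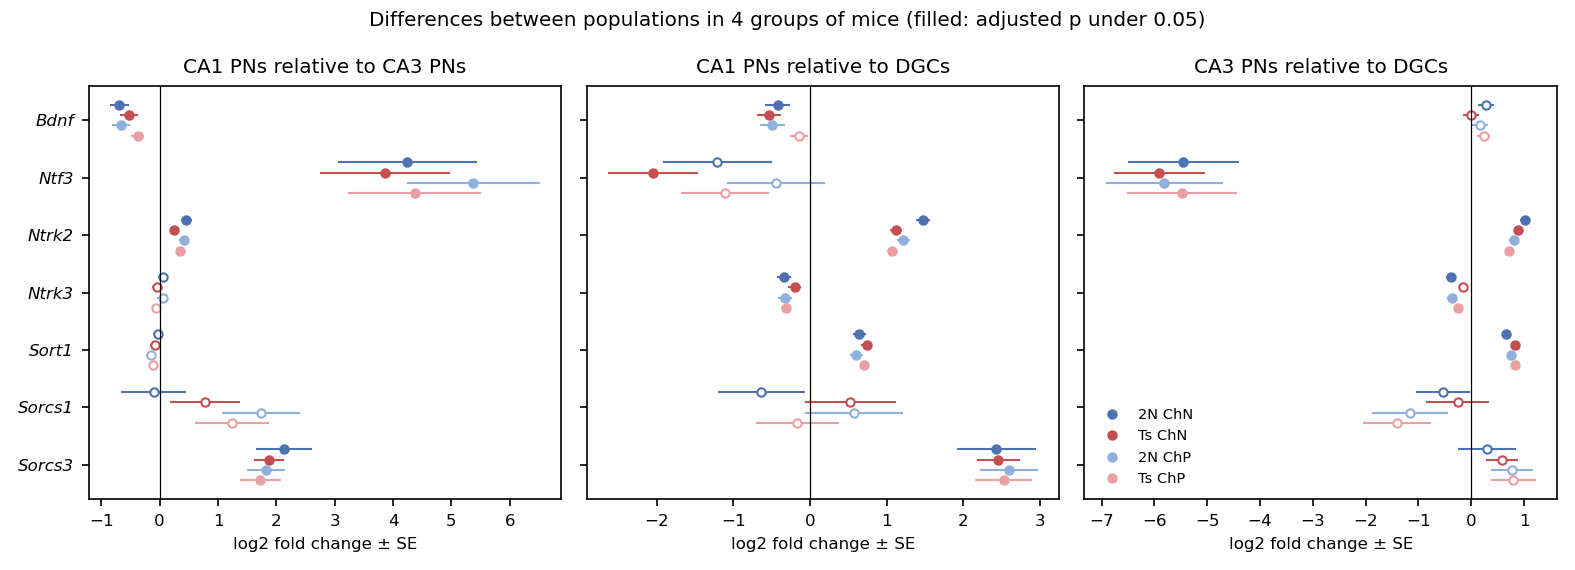
LFC ± SE of 7 members between populations within the 4 groups of mice, filled where the adjusted p is under 0.05 (edgeR). The LFC of Ntrk2, Sort1 and Sorcs3 relative to DGCs keep their sign in every group, while those of Ntf3 in CA1 PNs have wide errors.

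Genes of the wider pathway were counted by role, with the populations of 2N ChN mice compared at an adjusted p under 0.05; the lists were drawn up with earlier results of these data known. Of all genes, 34.3% differed between CA1 PNs and DGCs, 43.7% between CA3 PNs and DGCs and 23.3% between the PN populations. The lists together gave 56, 65 and 39 calls, and 52, 58 and 38 without mouse 17-154. Of 16 genes that BDNF signaling induces, CA1 PNs exceeded DGCs in 13 and fell below them in none (median LFC 2.53 against -0.03 over all genes), among them the MAP kinase phosphatases Dusp6 (6.38 ± 0.59) and Dusp5 (5.52 ± 0.56). CA3 PNs were above DGCs in 11 of 16 and below in 1, Dusp4 (-1.32 ± 0.26). CA1 PNs were above CA3 PNs in 8, including the nuclear receptor Nr4a1 (2.33 ± 0.42), and below in 1, the neuropeptide gene Npy (-1.62 ± 0.50, adjusted p = 0.0247). That call was lost with mouse 15-145 under its own label (-0.89, 0.0891), without the CA1 PN libraries high in CA2 markers (-1.69, 0.0807) and without mouse 17-56 (-1.45, 0.0884).

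Of 9 tested genes of proneurotrophin processing, CA3 PNs were higher than DGCs in 5 and lower in 2, and CA1 PNs were higher in 4 and lower in 2. Cpe, a sorting receptor for BDNF and a processing enzyme of the secretory pathway, was above DGCs by 2.97 ± 0.14 in CA1 PNs and 3.81 ± 0.14 in CA3 PNs, and the convertase gene Pcsk1 by 2.07 ± 0.42 and 2.33 ± 0.39. The convertase gene Pcsk5 was lowest in CA1 PNs (-7.36 ± 0.39 relative to CA3 PNs, -7.81 ± 0.38 relative to DGCs). Sorl1, another Vps10p-domain receptor, was highest in CA1 PNs (1.05 ± 0.11 relative to CA3 PNs, 0.66 ± 0.11 relative to DGCs).

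Of 38 Trk adaptors and kinases, 9 were above and 10 below the DGC level in CA1 PNs, and 18 above and 6 below it in CA3 PNs. CA1 PNs exceeded CA3 PNs in 1 of them and fell below in 9, a share close to that of all genes. The adaptor gene Shc3 was above DGCs in both PN populations (2.47 ± 0.25 and 2.47 ± 0.24), and Mapk3, the ERK1 gene, was lowest in CA1 PNs (-2.22 ± 0.19 relative to CA3 PNs and -3.44 ± 0.19 relative to DGCs). Of 13 tested p75 partners, CA1 PNs were higher than DGCs in 4 and lower in 4, and CA3 PNs higher in 5 and lower in 4. Lingo1, a co-receptor of p75 in the Nogo receptor complex, was above DGCs by 1.99 ± 0.16 in CA1 PNs and 2.97 ± 0.16 in CA3 PNs. Of 19 regulators of Bdnf transcription, 5 were above and 4 below the DGC level in CA1 PNs, 4 above and 7 below it in CA3 PNs, and 4 differed in each direction between the PN populations. The activity-regulated factor Npas4 was above DGCs by 2.03 ± 0.31 in CA1 PNs and 2.78 ± 0.28 in CA3 PNs, with -0.75 ± 0.23 for CA1 PNs relative to CA3 PNs (adjusted p = 0.0137; 0.137 without mouse 17-154 and 0.0523 without 15-145), and Mef2c was below DGCs in both (-2.41 ± 0.16 and -3.34 ± 0.16).

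The files also give, for each gene and library, the mean length of the transcripts to which RSEM assigned the reads, which moves when another transcript of the gene is used. It was compared for Bdnf, Ntrk2, Ntrk3 and Sort1 in 2N ChN mice with exact two-sided permutation tests, adjusted over the 12 tests. These tests treated libraries of the same mouse as independent. Sort1 was assigned a mean of 6767 bases (SD 18.9, n = 6) in CA3 PNs and 6666 (SD 80, n = 6) in DGCs, a difference of 101.2 bases that passed the test (exact permutation, adjusted p = 0.026), and the ranges, 6748 to 6803 and 6512 to 6727, did not overlap. Without mouse 15-145, 17-154, 17-172 or 17-21 the difference was 71.8 to 112.9 bases and the adjusted p 0.0952, the smallest that 5 against 5 libraries allow where no other of the 12 tests reaches the lowest exact p of 0.00794, so that no call could be made there. In the other 3 groups of mice, a comparison added after the data were seen, the difference was 87.7, 73.95 and 70.7 bases (exact permutation, adjusted p = 0.0281, 0.0233 and 0.0283 in Ts ChN, 2N ChP and Ts ChP), with overlapping ranges. With a minimum of 50 counts that of 2N ChP mice did not pass (0.0524). Ntrk2 was assigned 845.6 bases more in CA1 PNs than in DGCs of 2N ChN mice, which did not pass (exact permutation, adjusted p = 0.0519).

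Bdnf was assigned 3980 bases (SD 8.96, n = 6) in CA1 PNs, 4026 (SD 36.8, n = 6) in CA3 PNs and 3991 (SD 18.6, n = 6) in DGCs of 2N ChN mice. CA1 PNs differed from CA3 PNs by -46.05 bases, which did not pass after adjustment (exact permutation, adjusted p = 0.0866; without mouse 15-147 0.0476). In the other 3 groups the difference was -63.1, -73.4 and -48.25 bases, and each passed with separate ranges (exact permutation, adjusted p = 0.0281, 0.0035 and 0.0021). CA3 PNs were likewise assigned longer Bdnf transcripts than DGCs there, by 39.15, 74.4 and 37.1 bases (exact permutation, adjusted p = 0.045, 0.0035 and 0.00315). With a minimum of 50 counts Bdnf could be compared in Ts ChN mice only. The Bdnf transcripts of the files are 3830 to 4389 bases long and differ in their first exons. Short first exons hold few reads, and the transcripts behind a mean length were not resolved here.

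**Figure D4:**
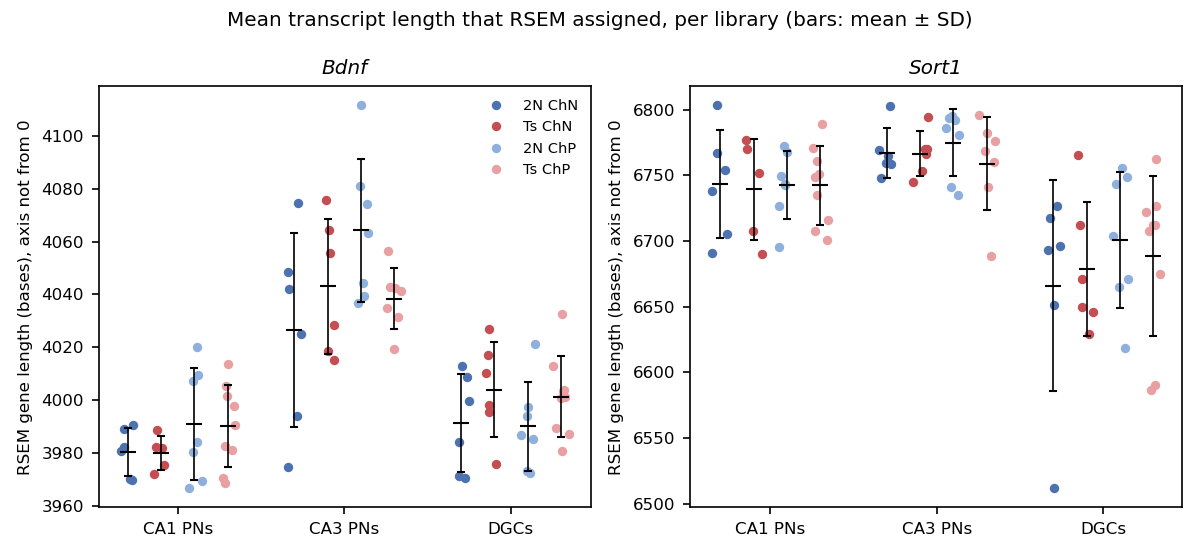
Mean transcript length (bases) that RSEM assigned to Bdnf and Sort1 in each library, by population, genotype and diet, on axes that do not start at 0; marks and bars are the mean ± SD. For Bdnf CA3 PNs lie highest, and for Sort1 DGCs lie lowest.

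Genotype was compared within each population and diet, asking whether trisomy alters these genes at 6 MO. Following the study, a differentially expressed gene (DEG) has an unadjusted p under 0.05. No member had an adjusted p under 0.05, the lowest being 0.479, and Ts and 2N ranges overlapped for 8 of 8 genes in each of the 6 comparisons, in CA1 PNs of ChN mice only through mouse 17-154 for Ntrk2, without which 7 of 8 overlapped. The share of all genes with overlapping ranges was not computed, so these counts have no background to be read against. Ngfr counts as overlapping although it was at 0 in all libraries of ChN CA1 PNs and ChN DGCs. Among ChN mice, 1 of 6 members tested was a DEG in CA1 PNs (3.77% of all genes), while CA3 PNs gave 1 of 6 (9.20%) and DGCs 0 of 7 (8.50%). In ChP mice CA1 PNs gave 1 of 7 (3.60%), CA3 PNs 1 of 6 (5.01%) and DGCs 1 of 7 (7.59%). No member was a DEG in both diets within a population.

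Ntrk2 was the member that was a DEG in CA1 PNs of ChN mice and was lower in Ts. The 5 Ts libraries had 566, 563, 539, 506 and 503 CPM, and the 6 libraries labelled 2N had 552, 617 and 651 CPM (lowest, median, highest), so the highest 2 Ts libraries lay above the lowest library labelled 2N, which is that of mouse 17-154. Without it the 5 2N libraries ran from 589.6 to 650.5 CPM, wholly above the 503 to 566 CPM of Ts. The LFC was -0.21 ± 0.10 (edgeR, unadjusted p = 0.045, adjusted 1), and without the library of mouse 17-154, labelled 2N, it was -0.24 (unadjusted p = 0.0333). Leaving out any of 9 other mice ended the call, with unadjusted p up to 0.129. In CA1 PNs of ChP mice the interval of the LFC was -0.16 to 0.16. In DGCs Ts values leaned upward in both diets, with an LFC of 0.15 in ChN (interval -0.01 to 0.31) and of 0.15 ± 0.08 in ChP, where Ntrk2 was a DEG (unadjusted p = 0.0459, adjusted 0.644; 233 to 321.5 CPM in Ts and 209.7 to 262 in 2N). The call in ChP was lost without any of 6 mice (15-140, 15-199, 15-334, 15-336, 16-206 and 16-90). Marker lists moved with the ChN comparison in CA1 PNs: the 6 microglia markers, none with a median of 0, had a mean log2(CPM + 1) of 1.47 ± 0.41 in 2N and 1.92 ± 0.26 in Ts (SD; 6.69 to 23.0 and 15.8 to 30.1 CPM summed), and the CA1 list had 5.65 ± 1.69 and 6.16 ± 0.48 (82.4 to 1771 and 495 to 1472 CPM). Their part in the Ntrk2 difference was not tested.

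The DEG in CA1 PNs of ChP mice was Bdnf, higher in Ts, with 39.7, 60.5 and 80.6 CPM (lowest, median, highest) in Ts and 31.8, 45.0 and 66.7 in 2N and an LFC of 0.36 ± 0.16 (edgeR, unadjusted p = 0.0381, adjusted 1). Without any of 8 mice it was no longer a DEG, at 0.27 to 0.35. Its LFC was 0.07 (interval -0.34 to 0.48) in ChN CA1 PNs, -0.08 and 0.10 in CA3 PNs and 0.20 and 0.05 in DGCs of ChN and ChP mice, none a DEG.

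In CA3 PNs, Sort1 was the DEG of ChN mice, with 884, 935 and 1032 CPM in Ts and 789, 853 and 965 in 2N and an LFC of 0.13 ± 0.06 (edgeR, unadjusted p = 0.0342, adjusted 0.479). It was lost with mouse 15-145 under its own label (0.07, unadjusted p = 0.262), without that mouse (0.10, 0.081) and without 15-147, 17-154, 17-157, 17-173 or 17-56. The 8 inhibitory neuron markers, none with a median of 0, moved with this comparison, at a mean log2(CPM + 1) of 4.42 ± 0.48 in 2N and 3.59 ± 0.20 in Ts (SD; 149.6 to 419 and 135 to 180.2 CPM summed), and the 6 vascular markers had 2.72 and 2.42 (38.6 to 60.9 and 26.4 to 40.9 CPM). Their part in the Sort1 difference was not tested. Ntrk3 was the DEG of ChP mice, with 488, 516 and 605 CPM in Ts and 442.5, 483.5 and 512 in 2N and an LFC of 0.15 ± 0.07 (unadjusted p = 0.036, adjusted 0.966), lost without any of 6 mice (14-125, 14-90, 15-199, 15-296, 15-334 and 16-206). The vascular markers had a mean of 2.84 ± 0.23 in 2N and 2.54 ± 0.40 in Ts there (SD; 43.2 to 60.1 and 26.6 to 61.0 CPM summed), and their part in the Ntrk3 difference was not tested. In ChN CA3 PNs the LFC of Ntrk3 was 0.13 (unadjusted p = 0.0647), not a DEG by edgeR. Ntf3 in DGCs had an LFC of 0.16 (interval -0.21 to 0.53) in ChN and 0.23 (-0.16 to 0.62) in ChP, and that of Sorcs3 lay between -0.01 and 0.27 in all 6 comparisons, with intervals as wide as -1.25 to 1.25 in ChN CA1 PNs.

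**Figure D5:**
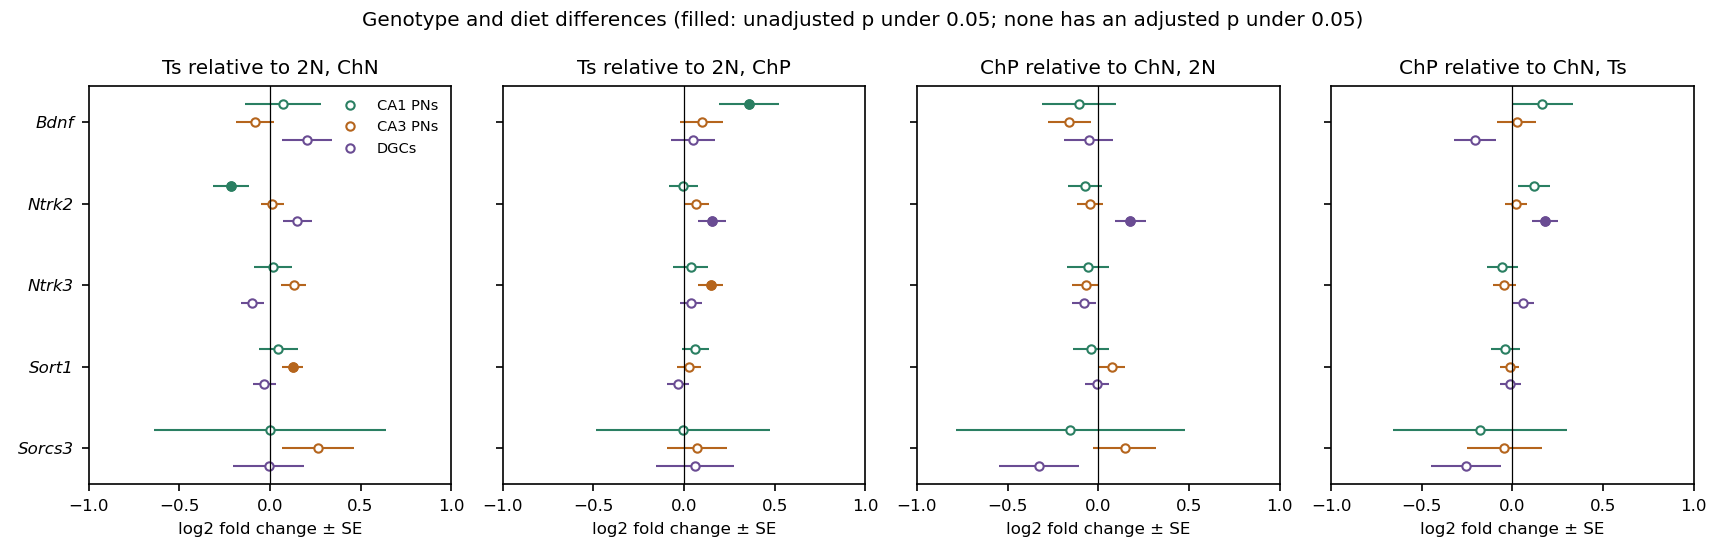
LFC ± SE of 5 members for Ts relative to 2N in each diet and for ChP relative to ChN in each genotype, by population, filled where the unadjusted p is under 0.05 (edgeR). The filled points are Ntrk2 in 4 comparisons, 3 of them in DGCs, and Bdnf, Ntrk3 and Sort1 in 1 each.

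Within the ChN mice the genotype difference of Ntrk2 was compared between populations, and it did not pass adjustment. The LFC of Ts relative to 2N in CA1 PNs minus that in DGCs was -0.36 ± 0.12 (edgeR interaction term, unadjusted p = 0.00324, adjusted 0.726), and Ntrk2 was the only member of 7 below 0.05 in this test, as were 5.51% of all genes. It stayed below 0.05 when each mouse was left out (without mouse 17-154 -0.33 and 0.00751). CA1 PNs against CA3 PNs and CA3 PNs against DGCs gave no member of 7 (4.23 and 5.17% of all genes). Marker lists moved with the genotype differences compared here. Microglia markers in CA1 PNs had a mean log2(CPM + 1) of 1.47 in 2N and 1.92 in Ts, and astrocyte markers in DGCs 4.16 and 4.47. Their part in the interaction was not tested. Whether genotype differences differed between populations in ChP mice was not tested.

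Maternal choline was compared within each genotype. In DGCs Ntrk2 was a DEG in both genotypes, higher in ChP, as 1 of 7 members in 2N (5.53% of all genes) and 1 of 7 in Ts (3.94%). The 2N DGCs had 186, 215 and 254 CPM in ChN and 209.7, 247 and 262 in ChP, an LFC of 0.18 ± 0.08 (edgeR, unadjusted p = 0.0372, adjusted 0.873), lost without any of 7 mice (0.13 to 0.18, unadjusted p up to 0.145 without mouse 17-154). The Ts DGCs had 224, 240.4 and 273 CPM in ChN and 233, 264 and 321.5 in ChP, an LFC of 0.18 ± 0.07 (unadjusted p = 0.0175, adjusted 0.999), which passed when each mouse was left out (0.15 to 0.22). Ranges overlapped in both.

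The 8 astrocyte markers moved with group in DGCs: their mean log2(CPM + 1) was 4.16 ± 0.18 in 2N ChN, 4.47 ± 0.21 in Ts ChN, 4.27 ± 0.32 in 2N ChP and 4.62 ± 0.19 in Ts ChP (SD), while mean Ntrk2 was 217, 241, 243 and 272.5 CPM. Their summed level was 716 to 1027, 772 to 1040, 672 to 929.8 and 743.5 to 1090 CPM, with no median at 0. The inhibitory neuron, oligodendrocyte, oligodendrocyte precursor, mossy cell and vascular lists were also highest in Ts ChP. The CA3, microglia and CA2 lists were highest in Ts ChN. Values follow in the same order of groups. Inhibitory neuron markers had means of 2.88, 2.94, 2.78 and 3.23 (175 to 335 CPM summed, with Sst or Vip at a median of 0). Oligodendrocyte markers had 3.04, 3.11, 2.97 and 3.37 (98.3 to 241 CPM, with Mog at a median of 0 in 3 groups). Oligodendrocyte precursor markers had 1.11, 1.10, 1.10 and 1.70 (3.84 to 18.04 CPM, with Olig2 at a median of 0 in 2N ChP). Mossy cell markers had 1.47, 1.42, 1.59 and 1.65 (19.6 to 53.4 CPM, with Drd2 and Csf2rb2 at a median of 0, and Calb2 in both ChN groups). The 6 vascular markers had 1.44, 1.71, 1.81 and 1.83 (12.6 to 39.2 CPM, with Cldn5 at a median of 0 in 2N ChP). The 5 CA3 markers, none with a median of 0, had 3.65, 3.83, 3.35 and 3.73 (83.5 to 179 CPM), with separate ranges in ChP mice, 3.05 to 3.52 in 2N and 3.57 to 4.08 in Ts. Microglia markers had 2.09, 2.27, 1.90 and 2.20 (12.9 to 41.1 CPM). CA2 markers had 3.31, 3.47, 3.29 and 3.4 (129 to 316.5 CPM, with Ccdc3 at a median of 0). The CA2 list holds Pcp4, which the study counts among the triplicated genes and reports as higher in Ts DGCs. The median summed level of that list was 186.3 and 300.5 CPM in 2N and Ts on ChN, and 172.1 and 231 CPM on ChP. The part of gene copy number in these values was not tested. Median library totals of DGCs were 1038020 and 1203018.5 expected counts in 2N and Ts on ChN and 929066 and 889242 on ChP. The part of these lists in the Ntrk2 differences was not tested.

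No member was a diet DEG in CA1 PNs of 2N (0 of 6; 2.24% of all genes) or Ts mice (0 of 6; 3.26%) or in CA3 PNs of 2N (0 of 6; 4.08%) or Ts mice (0 of 6; 4.91%). Intervals there were widest for Sorcs1 in CA1 PNs (-0.48 to 2.15 in 2N) and narrow for Ntrk2 in CA3 PNs (-0.10 to 0.14 in Ts). In DGCs Bdnf had an LFC of -0.21 in Ts (interval -0.44 to 0.02) and -0.05 in 2N, and Ntf3 of -0.22 and -0.29, none past the threshold. The genotype by diet interaction had an unadjusted p under 0.05 for no member of 7 in CA1 PNs (3.38% of all genes), CA3 PNs (4.87%) or DGCs (3.97%), the lowest p being that of Ntrk2 in CA1 PNs (0.21 ± 0.12, unadjusted p = 0.0788).

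Among the pathway genes, Rps6ka2, a ribosomal S6 kinase gene within a segment that Ts mice carry in an extra copy, was higher in Ts DGCs in ChN (0.54 ± 0.12, edgeR, adjusted p = 0.0102) and ChP (0.49 ± 0.11, adjusted p = 0.0102), and was a DEG in CA3 PNs in both diets (0.64 and 0.68, adjusted p = 0.135 and 0.149) and in CA1 PNs in ChP (0.75, adjusted p = 0.503). In ChP DGCs, Bhlhe40, a repressor of Bdnf, was lower (-0.43 ± 0.10, adjusted p = 0.0131) and Mef2c, an activity-dependent transcription factor, higher in Ts (0.28 ± 0.07, 0.0401). The CA3 list (3.05 to 3.52 in 2N and 3.57 to 4.08 in Ts) and other lists given above for DGCs moved with this comparison. Their part in it was not tested. By role, 4 of 37 Trk adaptors and kinases were DEGs in DGCs of ChN mice, all higher in Ts, a share near the 8.50% of all genes. Of BDNF-induced genes in CA3 PNs, 2 of 16 were lower in Ts in ChN and 2 of 16 higher in ChP (9.20 and 5.01% of all genes). CA1 PNs gave 0 of 16 in ChN and 2 of 16 higher in ChP (3.77 and 3.60%). DGCs gave 1 of 15 in each direction in ChN and 0 of 14 in ChP (8.50 and 7.59%). In CA3 PNs of ChN mice, where 9.20% of all genes were DEGs, 1 of 9 processing genes was higher and 3 were lower. Plat, the tissue plasminogen activator gene, was the higher one (0.70 ± 0.19, adjusted p = 0.0825). The lower ones, named after their values were seen, were the proprotein convertase genes Pcsk5 (-0.35 ± 0.15, adjusted p = 0.466) and Furin (-0.27 ± 0.13, 0.507) and Serpini1, which encodes neuroserpin, an inhibitor of tissue plasminogen activator (-0.25 ± 0.11, 0.447). Inhibitory neuron markers (mean log2(CPM + 1) of 4.42 in 2N and 3.59 in Ts) and vascular markers (2.72 and 2.42) moved with this CA3 PN comparison. Their part in it was not tested. Processing genes gave 1 DEG of 9 in ChP DGCs, higher in Ts (7.59% of all genes), and none in CA1 PNs, ChN DGCs or ChP CA3 PNs. With diet, 6 of 16 BDNF-induced genes were lower in ChP in 2N CA3 PNs (4.08% of all genes were DEGs), among them Egr4 (-0.63 ± 0.22) and Egr3 (-0.25 ± 0.09), both transcription factors of the immediate early class, with adjusted p of 0.998. Npy, another of the 6 (-1.48 ± 0.66), is also an inhibitory neuron marker, and the 8 inhibitory neuron markers moved with this comparison, at a mean log2(CPM + 1) of 4.42 ± 0.48 in ChN and 3.91 ± 0.30 in ChP (SD; 149.6 to 419 and 160.0 to 358.5 CPM summed; Vip had a median of 0 in ChP). Their part in the diet difference was not tested. In Ts CA3 PNs 2 of the 16 were higher and 1 lower (4.91% of all genes), in 2N DGCs 1 of 14 was higher, near the 5.53% of all genes, and the other 3 diet comparisons gave none.

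Over the means of the 12 groups, the genes whose log2 CPM was most correlated with a member, of 9831 genes searched, included 5031439G07Rik and Gsr for Bdnf (Pearson r = 0.965 and 0.959), Gabrd, Acvr2a and Rfx3 for Ntf3 (0.993), and Etv5 and Actr3b for Ntrk2 (0.994 and 0.993). Ntrk3 was most like Ints10, Slc27a1 and Arrdc3 (0.974 to 0.985), Sort1 like Gm49677, Tmod2 and Pitpna (0.995 to 0.996), and Sorcs3 like Map4, Vxn and Gpc5 (0.987). The 12 points share mice and form 3 populations, so the correlations mostly describe the order of the populations.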

How the data were processed

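RNA was taken from pooled neurons of each mouse and sequenced with a stranded Pico kit. The submitters' processing notes list FastQC 0.11.9, Trimmomatic 0.39, Picard 2.26.2, STAR and RSEM, and the methods align to GRCm39 with Gencode annotation. The authors deposited RSEM expected counts per gene in 3 matrices, and the same counts with TPM and mean transcript length for each library. Expected counts, of which 0.784% were not whole, were rounded. Genes over 0.1 CPM in at least 10 libraries were kept, scaled by TMM and tested with edgeR 4.0.16 (robust quasi-likelihood fit, R 4.3.3), with p-values adjusted by Benjamini-Hochberg over all genes tested. SE is the LFC divided by the square root of F, and intervals are normal 95% intervals from it. Replicates are mice, and p-values measure the spread between them. Population calls used an adjusted p under 0.05. Genotype, diet and interaction DEGs used the study's own threshold, an unadjusted p under 0.05. The study's DREAM fits also held RNA concentration and percentages computed from the reads as covariates, which were not available here. DEG counts are therefore not directly comparable with those of the study. Residuals of libraries from the same mouse correlated at 0.00583 to 0.18 over 9831 genes (medians 0.0847 to 0.0876), and mouse as a replicate block was an alternative, since 1 mouse gave up to 3 libraries. Other alternatives were DESeq2 1.42.0, limma-voom (limma 3.58.1), other filters and scaling, other labels and leaving out each mouse. The scripts were tested on simulated data: for CA1 PNs against CA3 PNs in 2N ChN mice (14644 genes), 26.5, 85.9 and 98.5% of genes changed by an LFC of 0.5, 1 and 2 were recovered. The changed genes were drawn only from those above a minimum mean count, and libraries were simulated without a shared mouse effect. These rates therefore do not cover genes as low as Ngfr, Sorcs1 or, in CA3 PNs, Ntf3. The named genes were the 8 members, in each pathway role at most the 2 highest and 2 lowest LFC among those called between populations or the 3 smallest p among DEGs, and the 3 genes most correlated with each member; a few genes that this rule names are not reported here. Members and lists were chosen with earlier results of these data known. Sequences come from RefSeq promoters on GRCm38.p6, and coordinates from the Gencode vM39 annotation, which may be a later version than the authors used.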

Additional observations from a re-analysis of the deposited data

Results flagged for a closer look

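Single libraries stood apart from the rest of their group in 14 cases among 89 groups tested by Dixon's test, where chance gives about 1 in 20. In 4 of the 14 (Ngfr in 3 groups and Ntf3 in 2N ChP CA3 PNs) 1 library held the only counts of its group, which this test picks out whatever their number, so that rate does not apply to them. The rate also assumes normally distributed values. Ntf3 in Ts ChP CA3 PNs, at 0 to 2 counts, and Ntf3 and Sorcs3 in CA1 PN libraries, divided with CA2 markers, are not of that kind. For Ntf3, mouse 16-357 had 24.4 CPM in Ts ChN CA1 PNs (others 0 to 3.11) and mouse 17-21 had 43.5 in 2N ChN CA1 PNs (others 0 to 14.1), both libraries high in CA2 markers. In DGCs, Ntf3 was 19.7 CPM in mouse 16-357 of Ts ChN (others 24.9 to 27.6) and 29.2 in mouse 15-36 of Ts ChP (others 19.3 to 22.6). In CA3 PNs it was 1.14 CPM in mouse 15-296 of 2N ChP, where the others were at 0, and 1.89 in mouse 15-140 of Ts ChP (others 0 to 0.788).

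Ntrk2 was 521 CPM in 2N ChP CA1 PNs of mouse 16-90 (others 575 to 604), and Ntrk3 was 663 CPM in Ts ChN CA3 PNs of mouse 17-173 (others 500 to 561). Sorcs3 was 51.9 CPM in Ts ChN CA1 PNs of mouse 16-357 (others 144 to 164). Sorcs1 was 12.4 CPM in Ts ChN CA1 PNs of mouse 17-157 (others 1.57 to 3.69) and 15 CPM in 2N ChP CA1 PNs of mouse 15-296 (others 0 to 5.89). Ngfr was above 0 in a single library of its group in 3 cases: 0.484 CPM in 2N ChN CA3 PNs of mouse 15-145, 0.853 in 2N ChP CA1 PNs of mouse 16-90 and 0.56 in Ts ChP DGCs of mouse 17-03.

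The LFC of Ts relative to 2N for Ntrk2 in CA1 PNs minus that in DGCs of ChN mice was -0.359 (edgeR interaction term, unadjusted p = 0.00324), which did not pass adjustment (0.726), and 5.51% of all genes had an unadjusted p under 0.05 in this test.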

How the results depend on the processing

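Leaving out the CA1 PN libraries high in CA2 markers gave the only change of sign, Ntf3 in CA1 PNs relative to CA3 PNs of Ts ChP mice, where the CA1 PN libraries left held 0 counts and the fitted -2.25 is no measure of size, and moved members called between CA3 PNs and DGCs of Ts ChN mice from 3 to 5. The cause was not tested. With limma-voom the number of members called between CA1 PNs and CA3 PNs of 2N ChN mice fell from 4 to 2. Mouse as a replicate block ended the call of Ntf3 between CA1 PNs and CA3 PNs in Ts ChN (3.63, adjusted p = 0.0667), added Ntf3 between CA1 PNs and DGCs in Ts ChP (-1.67, 0.0438) and Sorcs1 between CA1 PNs and CA3 PNs in 2N ChP (0.0466), and left the Ntrk2 interaction at -0.37 (unadjusted p = 0.00352). Of the single genotype DEGs, that of CA1 PNs in ChN went to 0 with library totals in place of TMM and with no filter, that of CA1 PNs in ChP to 0 with DESeq2, filterByExpr and library totals, and that of DGCs in ChP to 0 with DESeq2, library totals and limma-voom. In CA3 PNs the count of 1 went to 0 with all 4 groups in the fit and to 2 with library totals in ChN, and to 2 with no filter in ChP. With no filter, diet gave 0 members in 2N DGCs and 1 in Ts CA1 PNs. The genotype by diet count rose from 0 to 1 with limma-voom in CA1 PNs and DGCs. The genotype by population count rose from 0 to 1 for CA1 PNs against CA3 PNs (DESeq2, filterByExpr, limma-voom) and CA3 PNs against DGCs (those 3, library totals, and mouse 15-145 under its own label), and from 1 to 2 for CA1 PNs against DGCs without the CA1 PN libraries of mice 17-21 and 17-154. The causes were not tested.

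Leaving out each mouse, genotype counts were 0 to 1, except 0 to 2 in CA3 PNs of ChN. Diet counts were 0 to 1 in 2N CA3 PNs and 2N DGCs and 1 to 2 in Ts DGCs. Genotype by population counts were 0 to 1, 1 to 2 and 0 to 1, and in Ts ChN mice members called were 3 to 6 for CA1 PNs against DGCs and 3 to 5 for CA3 PNs against DGCs. RSEM length differences ran from -58.15 to -36.8 bases for Bdnf (CA1 PNs against CA3 PNs), 695.4 to 1017 for Ntrk2 (CA1 PNs against DGCs) and 71.82 to 112.9 for Sort1 (CA3 PNs against DGCs).

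In the other groups of mice, length differences that newly passed were -63.07, -73.41 and -48.25 bases (Bdnf, CA1 PNs against CA3 PNs), -23.93 (Bdnf, CA1 PNs against DGCs, Ts ChN), 39.15, 74.4 and 37.07 (Bdnf, CA3 PNs against DGCs), and 2126.06 and 1241.86 (Ntrk3, CA3 PNs against DGCs, Ts ChN and Ts ChP), and with a minimum of 50 counts that of Ntrk2 between CA1 PNs and DGCs passed at 845.6 bases. The genotype comparison in ChN CA1 PNs without the libraries of 17-21 and 17-154 was not run. Library totals shifted the median LFC of all genes by -0.136 and -0.198 in the comparisons of CA1 PNs and CA3 PNs with DGCs in 2N ChN mice. Alternatives on CA2 markers, the genotype check and the other groups were chosen after the data were seen. Counts of called pathway genes moved by over 1.5 times in 30 cases and not in 185 under other settings, and in 72 and not in 291 when a mouse was left out, and calls of pathway genes named by the rule were lost in 46 and 140 cases, with no change of sign. Depth limits Ngfr, Sorcs1 and, in PNs, Ntf3.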
